A study of Mus musculus with 93 samples.

Results

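The lymphocyte genes described here are Cd3e, Cd3d, Cd3g, Cd8a, Lck, Nkg7, Cd79a, Cd22 and Igha, 9 of the 30235 genes in the count table, taken by their symbols. Poly(A) RNA of female mice was sequenced from 2 parts of the eye, the neural retina and the posterior eyecup, the latter being what is left of the eye once lens and retina are removed. The mice were wild type (Wt) or Efemp1ki/ki, homozygous for a knock-in allele of the gene of the matrix protein fibulin-3, and had no treatment in either group; strain and altered residue are not in the labels. Eyecups came from 6 wild-type and 8 Efemp1ki/ki samples at 3 months, 8 and 8 at 9 months, and 8 and 7 at 17 months. Retinas came from 8 samples in each of the same 6 groups, giving 93 libraries in 12 groups. Since nothing ties libraries to individual mice, a p-value here reflects only variation among the libraries sequenced, which may be technical.

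T lymphocytes recognise antigen through a T cell receptor that signals by way of the CD3 chains, and the kinase Lck and the coreceptor CD8 act at its start. B lymphocytes signal through CD79 chains attached to surface antibody, CD22 restrains that signal, and plasma cells secrete antibody, IgA being the class that guards mucosal surfaces such as the conjunctiva. The inside of the healthy eye holds few lymphocytes, whereas the conjunctiva and the tissue around the eye are regularly patrolled by them.

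Cd3g (chr9:44969572-44980431, minus strand, GRCm38), Cd3d (chr9:44981786-44987339, plus strand) and Cd3e (chr9:44998740-45009627, minus strand) are neighbours within 40056 bases, and the starts of Cd3g and Cd3d lie 1355 bases apart. The other genes are scattered: Cd8a on chromosome 6 (71373427 to 71379173), Lck on chromosome 4 (129548344 to 129573641), Nkg7 (43437073 to 43438249), Cd79a (24897381 to 24902197) and Cd22 (30865402 to 30880342) on chromosome 7, and Igha on chromosome 12 (113254830 to 113260236). The 250 bases before the RefSeq start (GRCm38.p6) of Cd3e and Cd3g are shown because these neighbours passed the age test in the same genotype, and those of Cd22 because it had the smallest p of the 9 genes with age. The Cd22 window lies wholly inside the span given for that gene, because its RefSeq start does. The Cd3e window overlaps the end of its span. Letters are 5′ to 3′ on the gene's strand, and capitals mark the core CAGGAA bound by ETS factors, the core TGTGGT bound by RUNX factors, the EBF motif (TCCC and GGGA around 2 free bases) and the octamer ATGCAAAT, searched on both strands, with no overlap among the matches shown; 8 of the 9 genes had an entry.
Cd3e, chr9:45009612-45009861, minus strand: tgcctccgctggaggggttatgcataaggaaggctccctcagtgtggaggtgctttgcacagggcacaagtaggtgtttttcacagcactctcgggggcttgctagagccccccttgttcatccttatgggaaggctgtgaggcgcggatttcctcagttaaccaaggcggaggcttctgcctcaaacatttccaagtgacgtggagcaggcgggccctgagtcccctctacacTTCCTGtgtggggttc
Cd3g, chr9:44980432-44980681, minus strand: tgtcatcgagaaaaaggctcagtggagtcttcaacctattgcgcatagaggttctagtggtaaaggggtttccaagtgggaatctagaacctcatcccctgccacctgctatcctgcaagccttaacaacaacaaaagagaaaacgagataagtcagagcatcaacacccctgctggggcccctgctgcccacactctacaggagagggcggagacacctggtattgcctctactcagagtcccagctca
Cd22, chr7:30879029-30879278, minus strand: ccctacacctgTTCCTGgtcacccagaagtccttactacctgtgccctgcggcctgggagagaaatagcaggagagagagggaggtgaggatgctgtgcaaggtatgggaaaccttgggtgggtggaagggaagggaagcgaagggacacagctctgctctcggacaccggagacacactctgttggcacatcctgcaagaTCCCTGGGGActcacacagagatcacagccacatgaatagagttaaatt
Cd3e held an ETS core, Cd22 an ETS core and an EBF match, and Cd3g none of these letters. Among 32851 promoter windows of the same length, 25.7% held the ETS core, 14.0% the RUNX core, 0.8% the EBF motif and 1.6% the octamer. Igha is named only.

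The 45 eyecup libraries held 14236127 to 35297627 estimated counts each and the 48 retina libraries 9218127 to 37475492. Eyecups varied more between libraries of a group than retinas did, with a biological coefficient of variation of 0.309 against 0.0963. The eyecup libraries carried transcripts of the ocular surface: genes of corneal and conjunctival epithelium summed to 41100 to 62850 CPM (counts scaled to library size) in wild type at 3 months. Genes of the pigment epithelium summed to 1636 to 2626 CPM and those of skeletal muscle to 4854 to 16180 CPM in the same libraries. Rod genes summed to 924.3 to 8778 CPM there and to 66490 to 75040 CPM in wild-type retinas of that age, so eyecups held some retinal transcripts. Over all eyecups the rod sum ran from 197.5 to 24590 CPM. The part of retinal tissue in the eyecup values was not tested. All 9 lymphocyte genes passed the filter on low counts in the eyecup, and Lck and Cd79a alone passed it in the retina. By TMM-scaled CPM the genes were scarce, so counting error was wide: the median count of Cd3d was 5 (95% Poisson interval 1.62 to 11.7), that of Cd3g 9 (4.12 to 17.1), those of Lck and Igha 19 (11.4 to 29.7) and that of Cd22 33 (22.7 to 46.3). These intervals cover counting error only, as reads are not independent molecules.

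The first question was in which tissue the transcripts lay. Genes of the T cell receptor complex were almost absent from retina: Cd3e gave 22 counts over 48 retinas and 415 over 45 eyecups, Cd3d 11 against 259, and Cd3g 14 against 461. Nkg7, which encodes a protein of cytotoxic granules, gave 18 against 408, and Igha, the constant region of the IgA heavy chain, 28 against 1476. Retinas were at 0 counts in 32, 41, 37, 34 and 38 of 48 libraries for these 5 genes, in that order. Cd22 was intermediate, with 174 counts in retinas and 1700 in eyecups. Cd8a gave 150 and 348 counts and was at 0 in 1 retina. It was left out of the joint fit by the filter, and with no filter its log2 fold change was 1.31 ± 0.16 (adjusted p = 1.21e-12).

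Lck, Cd79a and Cd8a were shared by the tissues. Lck, the Src-family kinase that starts T cell receptor signalling, gave 830 counts in retinas and 853 in eyecups, and Cd79a, the signalling chain of the B cell receptor, 383 and 581. Per transcript length, in the deposited TPM, Lck had a median of 1.06 in retinas (0.538 to 1.71) and 0.737 in eyecups (0.326 to 1.42), so the ranges of the tissues overlapped broadly. For Cd79a the TPM medians were 0.792 and 0.769. For Cd8a they were 0.158 (0 to 0.402) and 0.203 (0.041 to 1.08), again with broad overlap. In the joint fit of both tissues 8 genes were tested and called higher in the eyecup, as were 47.7% of all 19210 genes tested. Only Lck and Cd79a passed the filter in retina by itself, so the other 6 entered through the eyecup, where they are high, and the count says nothing beyond the values above. The log2 fold changes were 4.22 ± 0.23 for Cd3e, 4.29 ± 0.30 for Cd3d, 4.74 ± 0.23 for Cd3g and 4.39 ± 0.21 for Nkg7 (SE throughout). They were 5.79 ± 0.38 for Igha, 3.46 ± 0.12 for Cd22 and 0.76 ± 0.14 for Cd79a. The value for Lck, 0.21 ± 0.09 (adjusted p = 0.0152), turned round to -0.23 on log2(TPM + 1) and to -0.37 with an offset for GC content, so no direction is given for it. Cd79a kept its sign but lost its call under the same settings (0.03 and 0.17, adjusted p = 0.619 and 0.254).

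**Figure D1:**
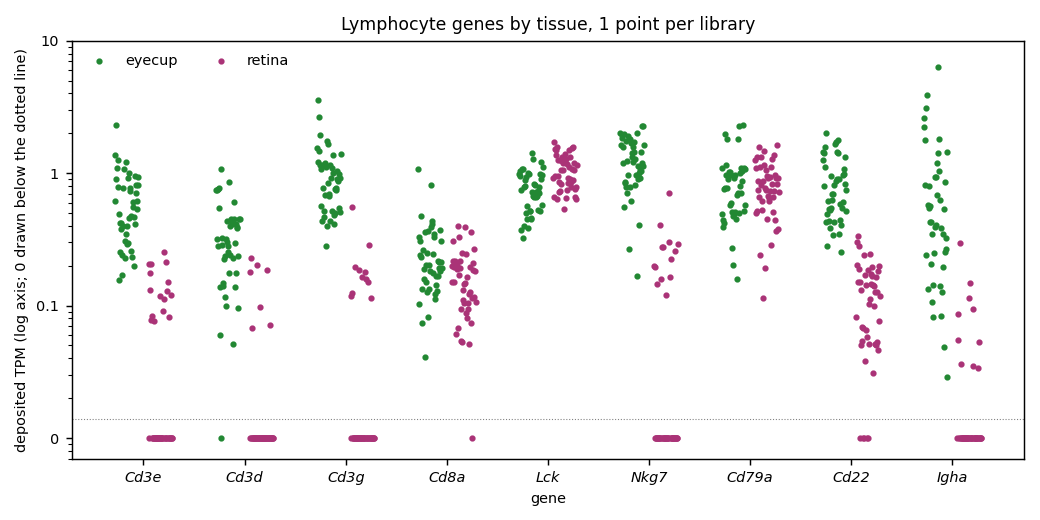
Deposited TPM of each gene (log axis) in 45 eyecup libraries (green) and 48 retina libraries (purple), 1 point per library; libraries listed at 0 lie below the dotted line. Most retinas sit at 0 for Cd3e, Cd3d, Cd3g, Nkg7 and Igha, whereas Lck, Cd79a and Cd8a overlap between the tissues.

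Ageing was compared as 17 against 3 months within each genotype. In wild-type eyecups 3 of 9 genes rose (Igha, Cd22 and Cd8a) and none fell, where 2.73% of all 18003 genes tested were called higher. In Efemp1ki/ki eyecups 5 of 9 rose (Cd3e, Cd3g, Cd22, Igha and Cd8a) and none fell, against 2.61% of all genes. The median log2 fold change of the 9 genes was 0.71 in wild type and 1.29 in Efemp1ki/ki, beside 0.03 and 0.06 over all genes tested. Cd79a was the exception in direction, with negative values in both genotypes that did not pass. In whole tissue, more cells of a type and more RNA per cell cannot be told apart.

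**Figure D2:**
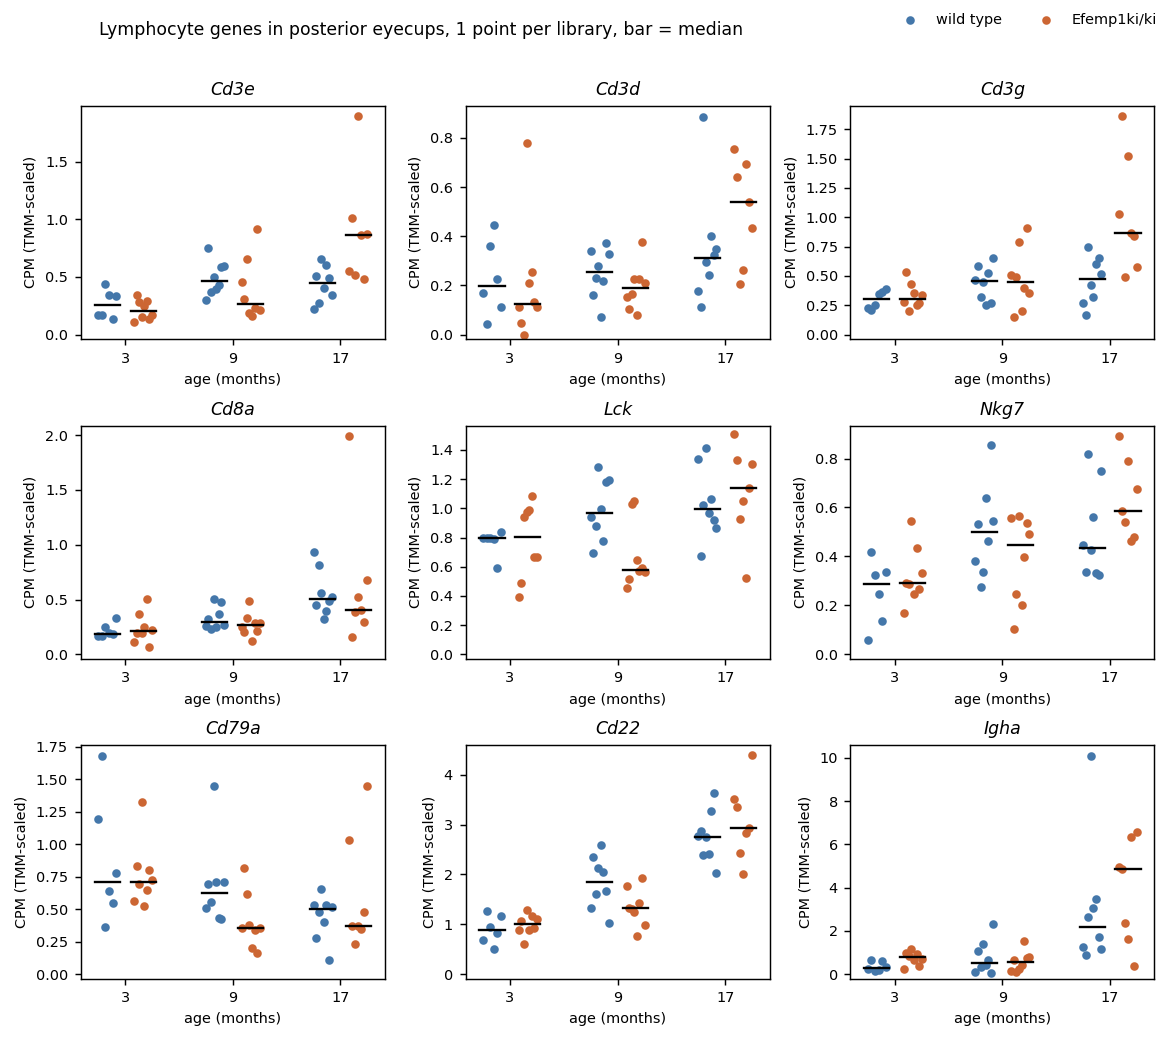
TMM-scaled CPM of the 9 genes in posterior eyecups by age in months, 1 point per library (blue, wild type; orange, Efemp1ki/ki), with the group median as a bar. Cd22 at 17 months lies above every 3-month library in both genotypes, and the highest Igha value is 10.1 CPM in a wild-type eyecup at 17 months.

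Cd3e encodes the epsilon chain of CD3, which pairs with the delta and gamma chains. In Efemp1ki/ki eyecups it ranged from 0.112 to 0.342 CPM at 3 months (median 0.207, n = 8) and from 0.478 to 1.90 at 17 months (median 0.867, n = 7). The 2 ages did not overlap. The log2 fold change was 1.97 ± 0.34 (adjusted p = 0.000168, edgeR quasi-likelihood test), and without the highest library, replicate 5 at 17 months, it was 1.66 (adjusted p = 0.00149). In wild type Cd3e ranged from 0.136 to 0.434 CPM at 3 months (median 0.253, n = 6) and from 0.223 to 0.657 at 17 months (median 0.445, n = 8), and the ages overlapped. That change was 0.71 ± 0.37 (adjusted p = 0.229), and with limma voom and quality weights it passed (0.95, adjusted p = 0.0307).

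Cd3g, the gamma chain, measured 0.205 to 0.538 CPM in Efemp1ki/ki at 3 months (median 0.307) and 0.488 to 1.87 at 17 months (median 0.867), with 6 of 7 older libraries above all younger ones. Its log2 fold change was 1.60 ± 0.31 (adjusted p = 0.00102). Wild-type values were 0.210 to 0.391 CPM at 3 months (median 0.300) and 0.169 to 0.750 at 17 months (median 0.473), and 1 older library lay below all the younger ones. The wild-type change was 0.62 ± 0.35 (adjusted p = 0.273).

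Cd3d, the delta chain and the scarcest of the trio, had medians of 0.123 and 0.538 CPM in Efemp1ki/ki at 3 and 17 months and 0.199 and 0.310 CPM in wild type. The 3-month knock-in group ranged from 0 to 0.780 CPM and so spanned its 17-month range of 0.205 to 0.756. That upper end was replicate 4 alone, with the next library at 0.253 CPM, and all 7 older libraries exceeded the 3-month median. Neither change passed, at 1.16 ± 0.46 (adjusted p = 0.157) and 0.56 ± 0.51 (adjusted p = 0.481), although with voom Cd3d passed in Efemp1ki/ki (1.76, adjusted p = 0.00422), where 7 of the 9 genes were then called. The genotypes' age effects were compared directly for the trio: the difference between them was 1.26 ± 0.51 for Cd3e and 0.98 ± 0.48 for Cd3g, both with an adjusted p of 0.998 (unadjusted 0.0169 and 0.0462). No gene of 18003 was called in that test (0.0%), while 560 had an unadjusted p under 0.05, so a change of Cd3e and Cd3g particular to the knock-in was not shown.

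Cd8a encodes the alpha chain of the coreceptor of cytotoxic T cells. Wild-type eyecups held 0.168 to 0.335 CPM at 3 months (median 0.190) and 0.322 to 0.935 at 17 months (median 0.504), with 7 of 8 older libraries above all younger ones. The log2 fold change was 1.36 ± 0.40 (adjusted p = 0.0342). In Efemp1ki/ki the range was 0.0667 to 0.506 CPM at 3 months (median 0.209) and 0.160 to 1.99 at 17 months (median 0.405), and the groups overlapped. That change of 1.29 ± 0.36 (adjusted p = 0.0353) leaned on 1 library: without the 17-month replicate at 1.99 CPM it was 0.71 (adjusted p = 0.255). The knock-in call was also lost without 3-month replicate 1, 2, 4 or 5, and it held in 6 of 11 alternative fits. The fits that ended it were no filter (adjusted p = 0.0514), the replicate block (0.0717), log2(TPM + 1) (0.107), leaving out eyecups of extreme GC trend (0.0787) and covariates for ocular surface and muscle genes (0.103). The wild-type call was lost without 3-month replicate 2, 3, 6, 7 or 9 or 17-month replicate 1, 3 or 8, with adjusted p-values from 0.0535 to 0.0897, and with the same covariates (1.17, adjusted p = 0.229) or the replicate block (1.24, adjusted p = 0.105).

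Lck and Nkg7 had positive values that did not pass. The Lck median was 0.796 CPM at 3 months and 0.994 CPM at 17 months for wild type (log2 fold change 0.44 ± 0.22, adjusted p = 0.220) and 0.804 and 1.14 CPM for Efemp1ki/ki (0.49 ± 0.21, adjusted p = 0.187). The Nkg7 medians were 0.287 and 0.436 CPM (0.92 ± 0.34, adjusted p = 0.0839) and 0.290 and 0.587 CPM (0.93 ± 0.30, adjusted p = 0.0719). All 8 older wild-type libraries and all 7 older knock-in libraries exceeded the median of their 3-month group for Nkg7. With voom Nkg7 passed in both genotypes (1.20 and 1.08, adjusted p = 0.00848 and 0.0182), and Lck passed in wild type (0.60, adjusted p = 0.0400).

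**Figure D3:**
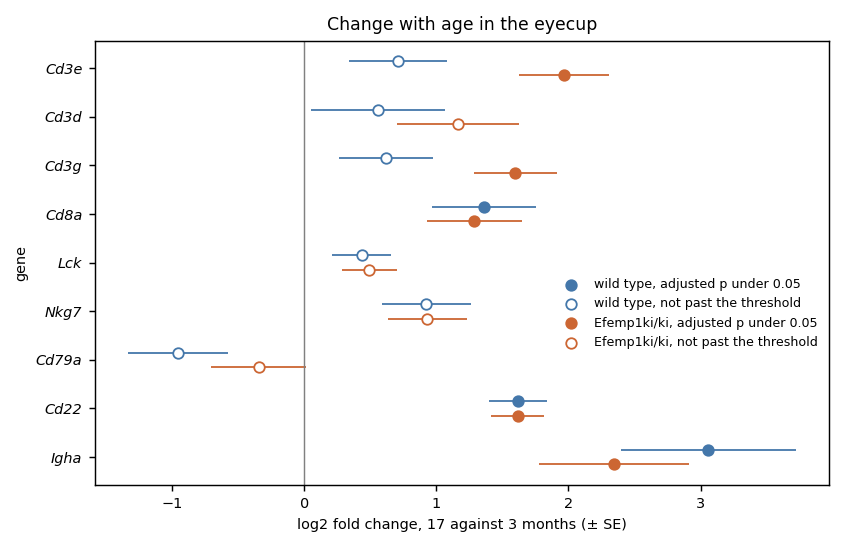
Log2 fold change of each gene from 3 to 17 months in eyecups with its standard error, for wild type (blue) and Efemp1ki/ki (orange); filled points passed an adjusted p of 0.05. Igha and Cd22 are filled in both genotypes, Cd3e and Cd3g in Efemp1ki/ki, and Cd79a is the gene left of 0.

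Other T cell genes moved in part. Of 15 tested from a list of 22, 1 rose in wild type (Il7r) and 4 rose in Efemp1ki/ki (Il7r, Lat and Trdc among them), and none fell. Il7r, the receptor for the survival cytokine interleukin 7, rose by 1.54 ± 0.38 and 1.81 ± 0.35 on the log2 scale (adjusted p = 0.0129 and 0.000965). Trdc, the constant region of the delta T cell receptor chain, rose by 2.14 ± 0.50 in Efemp1ki/ki (adjusted p = 0.00794) and had a value of -0.37 ± 0.52 in wild type. Lat, an adaptor of T cell receptor signalling, was at the edge of the threshold (0.87 ± 0.26, adjusted p = 0.0498) and kept its call in 17 of the 45 fits that left out 1 eyecup. The beta chain constant region Trbc2 had values of 0.94 ± 0.45 and 1.36 ± 0.43 that did not pass (adjusted p = 0.188 and 0.0631). The median over the list was 0.12 in wild type and 0.45 in Efemp1ki/ki. None of 6 tested NK and cytotoxic genes was called in either genotype with edgeR, while voom called 2 in each and DESeq2 called 1 in wild type. With edgeR 2 had an unadjusted p under 0.05 in each, as had 4423 of all 18003 genes in wild type and 3433 in Efemp1ki/ki.

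Cd79a and Cd22, both B cell genes, went different ways. Cd79a ranged from 0.362 to 1.68 CPM in wild type at 3 months (median 0.712) and from 0.108 to 0.657 at 17 months (median 0.499), with no older library above the younger median. Its log2 fold change was -0.95 ± 0.38 (adjusted p = 0.112). In Efemp1ki/ki the medians were 0.709 and 0.373 CPM, 5 of 7 older libraries lay below all younger ones and 1 lay above them, and the change was -0.34 ± 0.36 (adjusted p = 0.644). Haemoglobin and other red cell genes, 3 tested, had a median of -0.71 in wild type and -0.46 in Efemp1ki/ki in the same comparison, and none was called. The 4 such genes in the table summed to 85.6 to 774 CPM at 3 months and 38.5 to 500.1 CPM at 17 months for wild type, with none at 0. Over the 45 eyecups Cd79a and the 3 tested genes had a median Spearman rho of 0.42 once group means were removed. A fit with a covariate for the red cell genes was among the 12 alternative fits. Across these the Cd79a change ran from -1.29 to -0.45 in wild type and from -0.61 to -0.17 in Efemp1ki/ki, never called. Beyond these values the part of blood in Cd79a was not tested.

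Cd22 encodes an inhibitory receptor of B cells that binds sialic acid. Wild-type eyecups held 0.495 to 1.26 CPM at 3 months (median 0.879), 1.03 to 2.60 at 9 months (median 1.85) and 2.02 to 3.63 at 17 months (median 2.76). Efemp1ki/ki eyecups held 0.614 to 1.29 (median 1.01), 0.767 to 1.93 (median 1.32) and 2.00 to 4.39 CPM (median 2.93). All 15 older libraries exceeded every 3-month library of their genotype. The log2 fold change was 1.62 ± 0.22 in wild type (adjusted p = 5.91e-06) and 1.62 ± 0.20 in Efemp1ki/ki (adjusted p = 5.46e-07). Cd22 passed under every alternative run and with each library left out.

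Cd79b and Cr2 followed Cd79a rather than Cd22 in sign. Cd79b, the partner chain of Cd79a, had values of -0.78 ± 0.29 and -0.30 ± 0.27, and Cr2, a complement receptor of B cells, -1.25 ± 0.45 and -0.71 ± 0.48 in wild type and Efemp1ki/ki. Neither gene passed (smallest adjusted p = 0.0818). Of the 9 B cell genes tested from a list of 14, Cd72 and Ighm rose in wild type, and these and Blk rose in Efemp1ki/ki. Cd72, another inhibitory receptor, rose by 0.77 ± 0.19 and 1.09 ± 0.18, and its wild-type call was lost without 3-month replicate 9 (0.67, adjusted p = 0.0650). Ighm, the IgM constant region, rose by 1.58 ± 0.41 and 2.11 ± 0.38 (adjusted p = 0.0205 and 0.000369), and its wild-type call was lost without 3-month replicate 9 or 17-month replicate 8 and, with covariates for ocular surface and muscle genes, at 0.93 (adjusted p = 0.331). Blk, a Src-family kinase, rose by 1.71 ± 0.45 in Efemp1ki/ki (adjusted p = 0.0240), a call lost without 3-month replicate 2 or 3 or 17-month replicate 2 or 5. The list's median was -0.38 and -0.25, opposite in sign to its called genes.

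Macrophage genes rose beside Cd22. Of 12, 7 rose in wild type and 8 in Efemp1ki/ki, with medians of 0.84 and 0.85. Lyz2, the lysozyme of myeloid cells, rose by 1.80 ± 0.20 and 1.95 ± 0.18, and Adgre1, which encodes the F4/80 antigen, by 1.14 ± 0.18 and 1.21 ± 0.17. The summed macrophage level was 290 to 425 CPM at 3 months and 465 to 878 at 17 months for wild type, and 279 to 462 and 527 to 978 for Efemp1ki/ki, so the ages did not overlap and no gene of the list was at 0. Itgax, the CD11c integrin chain, belonged to a separate list of MHC class II and dendritic genes and rose by 1.80 ± 0.20 and 1.96 ± 0.18. Of 9 genes tested from that list, 3 rose in wild type and 1 in Efemp1ki/ki, with medians of 0.52 and 0.45. Whether the Cd22 transcripts came from B cells or from other cells was not tested.

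**Figure D4:**
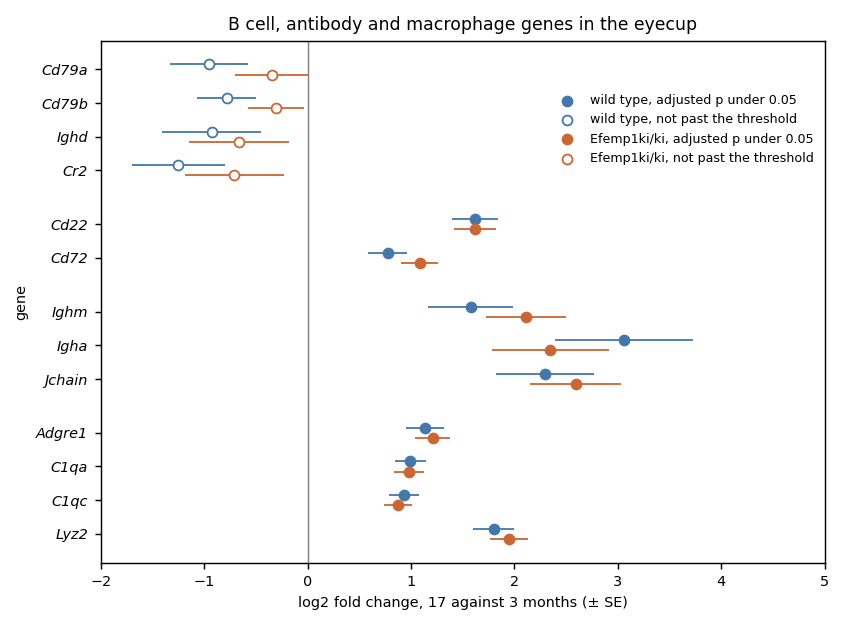
Log2 fold change from 3 to 17 months with its standard error in wild-type (blue) and Efemp1ki/ki (orange) eyecups for B cell receptor genes and Cr2, Cd22 and Cd72, antibody genes and macrophage genes; filled points passed an adjusted p of 0.05. The first group, from Cd79a to Cr2, lies left of 0 and is open, and the other 3 groups lie right of 0 and are filled. The genes were picked for display, so the split between groups is not a result. Ighd is drawn in the first group and Ighm among antibody genes, Blk is left out, and only some of the 12 macrophage genes are drawn.

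Igha had the largest fold change with age among the 9 genes in both genotypes and the widest spread. Wild-type eyecups held 0.145 to 0.672 CPM at 3 months (median 0.281), 0.0535 to 2.34 at 9 months (median 0.538) and 0.899 to 10.1 at 17 months (median 2.20). Every older library exceeded every 3-month one, and the log2 fold change was 3.06 ± 0.66 (adjusted p = 0.00439). The highest library held 307 counts, and without it the change was 2.47 (adjusted p = 0.0173). In Efemp1ki/ki the range was 0.224 to 1.17 CPM at 3 months (median 0.791), 0.123 to 1.54 at 9 months (median 0.555) and 0.359 to 6.57 at 17 months (median 4.85). There 6 of 7 older libraries exceeded all the younger ones, and the change was 2.35 ± 0.57 (adjusted p = 0.0119).

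Some other antibody genes rose with Igha, but Ighd, the IgD constant region, was called in neither genotype. Jchain, the chain that joins IgA and IgM units for secretion, rose by 2.29 ± 0.48 in wild type (adjusted p = 0.00295; 1.34, adjusted p = 0.106, with covariates for ocular surface and muscle genes) and by 2.59 ± 0.44 in Efemp1ki/ki (adjusted p = 0.000142). Its medians went from 0.760 to 3.89 CPM and from 0.597 to 4.18. The IgG2b constant region Ighg2b gave 2 counts over the 6 wild-type eyecups at 3 months and 487 over 8 at 17 months, and 25 and 324 in Efemp1ki/ki, where 211 of the 324 came from replicate 1 and the call was lost without it (adjusted p = 0.240). Reads of antibody constant regions may be split between near-identical genes, so these values are uncertain. Of 8 plasma cell genes tested from a list of 16, 3 rose and 1 fell in wild type (Prdm1, a plasma cell transcription factor, -0.54 ± 0.17, adjusted p = 0.0430) and 2 rose in Efemp1ki/ki, with medians of 0.40 and 0.78. The Prdm1 call held in 9 of 12 alternative fits and 35 of 45 that left out 1 eyecup, and with covariates for ocular surface and muscle genes the value was -0.12 (adjusted p = 0.754). Pigr, the receptor that carries IgA across epithelium, had values of -0.49 ± 0.43 and 0.28 ± 0.41 (adjusted p = 0.465 and 0.759).

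The ages between were compared as means over the genotypes. From 3 to 9 months 2 of 9 genes rose, where 5.49% of all genes were called higher: Cd22 by 0.73 ± 0.15 (adjusted p = 0.00157) and Cd3e by 0.82 ± 0.25 (adjusted p = 0.0272). From 9 to 17 months 3 of 9 rose, where 4.3% of all genes were called higher: Cd22 by 0.88 ± 0.14, Igha by 2.36 ± 0.40 (adjusted p = 0.000325) and Cd8a by 0.95 ± 0.25 (adjusted p = 0.0204). Cd22 thus passed at each step. The earlier call of Cd3e was lost without wild-type 3-month replicate 3 (0.77, adjusted p = 0.0561), and the later call of Cd8a without Efemp1ki/ki 17-month replicate 1 (0.66, adjusted p = 0.0836). Cd3e had a value of 0.51 ± 0.23 in the later step (adjusted p = 0.175).

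The genotype comparison asked whether Efemp1ki/ki eyecups differed at a given age. None of the 9 genes was called at 3 months (3.07% of all genes called), 9 months (0.00555%) or 17 months (0.0611%), or as the mean of the 3 ages (4.48%) with the main edgeR fit or DESeq2. Unadjusted p-values under 0.05 numbered 0, 3, 2 and 1 of 9 in that order. At 17 months all 9 had positive values, with a median log2 fold change of 0.34 beside 0.03 over all genes. Cd8a, Lck, Cd79a, Cd22 and Igha changed sign in some other fit. The shift was not particular to lymphocyte genes: 11 of 12 ocular surface genes and 6 of 6 goblet and gland genes were also positive. Their medians were 0.40 and 0.80, with none called, while all 12 rod genes and 10 of 12 pigment epithelium genes were negative. At 17 months Cd3g was 1.14 ± 0.31 higher on the log2 scale in Efemp1ki/ki (unadjusted p = 0.000678, adjusted p = 0.180), with all 7 libraries above the wild-type median and 5 above all wild-type libraries. Cd3e was 0.99 ± 0.32 higher (unadjusted p = 0.00381, adjusted p = 0.267), with 7 of 7 above the wild-type median. With voom and quality weights Cd3g passed (1.09, adjusted p = 0.0335). In edgeR with an offset for GC content, Cd3g also passed for the mean of the 3 ages (adjusted p = 0.0493). At 9 months 3 genes had an unadjusted p under 0.05 and lower values in Efemp1ki/ki: Lck (-0.52 ± 0.21), Cd79a (-0.74 ± 0.36) and Cd22 (-0.46 ± 0.19), each with an adjusted p of 1. No gene of the T cell, NK, B cell, plasma cell or recruitment lists was called between genotypes at 17 months or over the mean of the ages. In the retina neither Lck nor Cd79a was called for genotype (5.24% of 17240 genes) or for age (36.4%).

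Ocular surface content was set beside these changes. All 12 genes of the ocular surface list had negative values from 3 to 17 months in wild type, 3 of them called (Krt12, Krt13 and Krt6a), and 11 of 12 were negative in Efemp1ki/ki with none called. At 17 months these genes summed to between 26030 and 48650 CPM for wild type and between 28140 and 59830 CPM for Efemp1ki/ki, with no gene at 0. Within groups, Cd3e and Cd3g had a median rho of 0.44 and 0.40 with these 12 genes over 45 eyecups. With the 12 rod genes the median rho was -0.305 for Cd3e, -0.303 for Cd3g and -0.304 for both Cd22 and Igha. With covariates for ocular surface and muscle genes the knock-in age change was 2.26 for Cd3e and 1.77 for Cd3g, and both passed. The same covariates ended the age calls of Cd8a in both genotypes and those of Ighm and Jchain in wild type. That fit took both covariates at once, so the part of each was not separated. All 12 skeletal muscle genes had positive values from 3 to 17 months in both genotypes, with medians of 1.12 in wild type and 0.82 in Efemp1ki/ki, and none was called. Of 6 goblet and gland genes tested, 2 mucins rose in Efemp1ki/ki, with 4 positive and 2 negative values in all: Muc5b by 4.93 ± 1.08 (adjusted p = 0.00409) and Muc5ac by 3.65 ± 1.04 (adjusted p = 0.0388). The part of dissected surface tissue or muscle in the lymphocyte values was not tested beyond these values.

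Of 13 tested genes from the list for lymphocyte recruitment and antibody transport, 2 rose with age in wild type and 6 in Efemp1ki/ki, with medians of 0.33 and 0.86. In wild type 8 values were positive and 5 negative, and in Efemp1ki/ki 12 and 1. Cxcl13, the chemokine that draws B cells, rose by 2.33 ± 0.44 and 2.56 ± 0.41 (adjusted p = 0.00111 and 5.7e-05). Vcam1, the vessel adhesion molecule, rose by 1.06 ± 0.15 and 1.36 ± 0.14. Cxcl10, Icam1, Il7 and Tnfsf13b passed in Efemp1ki/ki, by 1.56, 0.66, 1.34 and 0.86. These 4 lost their call when the eyecups with an extreme GC trend were left out (1.44, 0.63, 1.01 and 0.80, adjusted p = 0.111 to 0.144). They kept it in 41, 30, 42 and 37 of the 45 fits that left out 1 eyecup.

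From library to library the 9 genes varied largely on their own. Over 45 eyecups with group means removed, the 36 pairs had a median Spearman rho of 0.16, from -0.13 for Cd3d and Cd79a to 0.46 for Cd8a and Lck. Cd3d and Cd3g had 0.44, Cd3e and Cd3g 0.34 and Cd3e and Cd3d 0.07. Pairs share a library and its depth, and counts this low limit any rho, so these are descriptions.

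**Figure D5:**
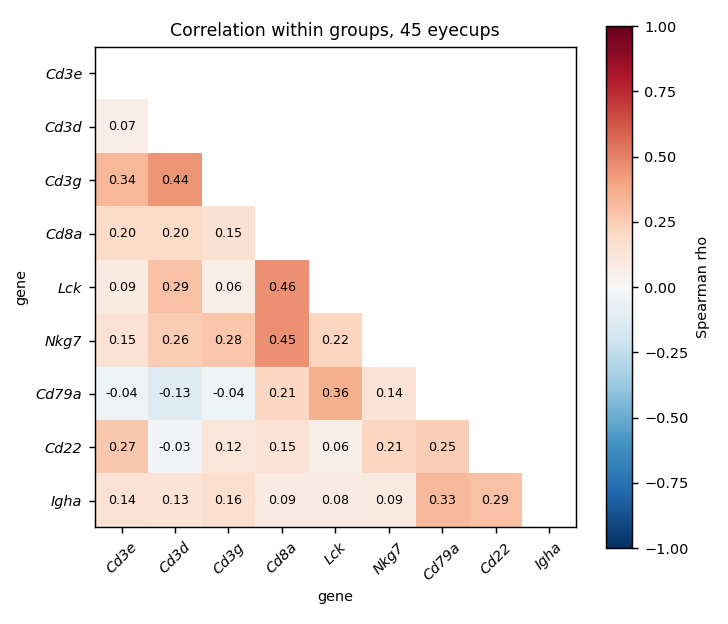
Spearman rho between each pair of genes over 45 eyecup libraries after the group mean was removed from log2 CPM; the colour scale runs from -1 to 1. The highest pair is Cd8a and Lck at 0.46 and the lowest Cd3d and Cd79a at -0.13.

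Among 17994 other genes, those most like Cd79a included Gm10643 (rho 0.58) and Ighd, the IgD constant region (0.55). For Cd22 they were Tekt5 (0.61), Irf8, a transcription factor of myeloid and B cells (0.59), and Akr1c12 (0.58). For Igha they included Igtp, an interferon-induced GTPase (0.56), and Cd37, a leukocyte tetraspanin (0.56). Cd3e was most like Atf3, a stress-induced transcription factor (0.66), and Cd3g most like Fam3b (0.71), Gsg2 (0.70) and the scavenger receptor gene Cd163l1 (0.69). Cd8a was most like Eddm3b (0.70) and Lck most like Ighg2c (0.54). Cd3d was most like RP23-98C9.8 (0.58) and Nkg7 most like Sdf4 (0.57). With 45 libraries and this many genes, high values of rho arise readily, and no shared role follows from them.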

How the data were processed

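The authors deposited estimated counts per gene, per the file headers 1 column per library; 74.2% of values are whole within 0.001, and they were rounded for the tests. A second deposited table, named TPM, reaches 1000000 per library over protein-coding genes only, so its values were handled as a score. In each file 1 column matched no sample and was not used here. Per the labels' protocols, libraries were made with a stranded poly(A) kit; the submitters' processing notes name GRCm38 p4. Aligner, counter and strand setting: not given in the sources used here. Hence reads of Cd3e and Cd22 cannot be told from their antisense genes Gm48719 and Gm29439, and Cd3e also overlaps Gm48720.

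Genes passing filterByExpr (18003 in the eyecup, 17240 in the retina, 19210 jointly) were TMM-scaled and tested in edgeR 4.0.16 (robust quasi-likelihood, R 4.3.3), 1 fit per tissue and 1 joint fit, with Benjamini-Hochberg adjustment over all genes tested. A gene was called under 0.05. Standard errors came from the F statistic. Functions were tested on simulated data. The closest libraries of a group differed 2.29 times more than sampling noise (chi-square per degree of freedom), so none were copies. Alternatives were RLE factors, no filter, the replicate block, DESeq2 1.42.0, limma 3.58.1 voom, limma on log2(TPM + 1), a GC offset (spline with 5 degrees of freedom), covariates for marker genes, the groups compared alone, leaving out libraries that stood apart by 3 scaled median absolute deviations and leaving out each eyecup. A fit without the libraries of extreme GC trend (2 eyecups, 4 retinas) was chosen after seeing the data. At 3 months the GC trend went with genotype: its slope was positive in every Efemp1ki/ki eyecup and negative in every wild-type one. Cd3g and Cd3e had the lowest GC content of the 9 genes (38.5% and 44.5% in the longest transcript). Their knock-in age calls held in every alternative fit that tested them. The 9 genes and the lists were chosen with earlier results of these data known. Named were the 9 genes, the 4 genes of a list with the smallest p, called genes of the 5 lymphocyte lists, and the 3 genes most like each of the 9 by Spearman rho. Cd79b, Cr2 and Pigr values are given for their roles. Some listed genes, such as Trac and Igkc, were not analysed here, and some results that the rule would name are not reported here.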

Additional observations from a re-analysis of the deposited data

Results flagged for a closer look

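In 66 groups of 6 to 8 libraries, 10 held a library set apart from the rest by more than the 95% critical value of Dixon's gap ratio. Chance gives about 1 in 20 groups only if values are normal, which counts this low need not be, so no excess is read from the 10. The highest Igha value was 10.1 CPM in wild-type eyecups at 17 months (replicate 4, 307 counts; next 3.46). In Efemp1ki/ki eyecups at 17 months Cd3e reached 1.90 CPM in replicate 5 (36 counts; next 1.01) and Cd8a 1.99 CPM in replicate 1 (29 counts; next 0.676). Cd3d reached 0.887 CPM in wild type at 17 months (replicate 3). In Efemp1ki/ki at 3 months, replicate 4 was highest for both Cd3d (0.780 CPM) and Cd79a (1.33 CPM), and it is 1 of the 2 eyecups with an extreme GC trend. Cd79a reached 1.45 CPM in wild type at 9 months (replicate 5), and Igha 1.54 CPM in Efemp1ki/ki at 9 months (replicate 6). Low values were those of Lck, 0.589 CPM in wild-type eyecups at 3 months (replicate 7) and 0.491 CPM in Efemp1ki/ki retinas at 9 months (replicate 7).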

How the results depend on the processing

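Counts are of the 9 genes called. With voom they became 1 for genotype at 17 months (Cd3g), 6 for age in wild type, 5 from 3 to 9 months, 6 from 9 to 17 months and 1 for age in the retina (Cd79a). The GC offset gave 1 for the mean genotype difference (Cd3g) and 1 from 3 to 9 months, as did log2(TPM + 1) and the fit without libraries of extreme GC trend for that step. Fitting only the groups compared gave 3 for age in Efemp1ki/ki, where Cd3e and Cd8a no longer passed the filter on low counts. Marker covariates gave 4 from 3 to 9 months, and leaving out libraries that stood apart gave 5 from 9 to 17 months. No filter gave 2 for age in the retina (Cd22 and Igha). Leaving out each eyecup gave 1 to 4 from 3 to 9 months (1 without wild-type 3-month replicate 3, 4 without Efemp1ki/ki 9-month replicate 2). Lck between tissues reversed, to -0.23 on log2(TPM + 1) and -0.37 with the GC offset. The cause of these shifts was not tested, other than that filter. Of single values reported for the 9 genes, 486 of the alternative fits kept sign and side of the threshold, 14 lost and 18 gained a call. A further 47 values, with an unadjusted p of 0.05 or more, are not printed; 23 of them changed sign in some fit, 141 times in 2440, never as a call, and 2 fits called 1 of them.

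No steady pairing by replicate number was seen between the genotypes of an age. Same-numbered wild-type and Efemp1ki/ki eyecups correlated from -0.538 to 0.710, with medians of -0.215, 0.288 and -0.0118 at 3, 9 and 17 months. Eyecups and retinas of the same number were not compared. As a block, replicate numbers took the call from Cd8a in wild type (1.24, adjusted p = 0.105) and Efemp1ki/ki (1.20, adjusted p = 0.0717), and moved no count of the 9 genes by over 1.5 times. Depth limits Cd3d most, at a median of 5 counts.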

Other observations

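In the retina, with no filter on low counts, Cd22 rose from 3 to 17 months by 1.21 ± 0.32 on the log2 scale (adjusted p = 0.00357), from 26 and 10 counts over the 8 wild-type and 8 Efemp1ki/ki retinas to 41 and 53. Igha gave 0 counts in all 16 retinas at 3 months and 10 and 13 at 17 months in wild type and Efemp1ki/ki, of which 7 and 9 came from 1 library each. Macrophage genes rose there too, 9 of 12 tested, with 1 lower. In that retina comparison 36.4% of all 17240 genes were called, 3287 of them higher.

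Mast cell genes also rose with age in wild-type eyecups, 2 of 5 tested: Cma1 by 1.36 ± 0.41 and Tpsb2 by 1.29 ± 0.40 (adjusted p = 0.0423 and 0.0465). In Efemp1ki/ki their values were 1.17 ± 0.38 and 1.14 ± 0.37 (adjusted p = 0.0752 and 0.0751). Csf3r, a granulocyte receptor gene, rose in both, by 0.73 ± 0.17 and 1.06 ± 0.16.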
